A study of Mus musculus with 7 samples.

Results

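The genes described here are 40 sarcomere and muscle differentiation genes of the mouse, out of 21938 protein-coding genes of GENCODE M21 on build mm10. They were named in a fixed list that holds 6 myosin heavy chains, 5 myosin light chains, 2 sarcomeric actins, 6 troponins, 3 tropomyosins, 5 Z-disc and intermediate filament proteins, 6 giant, M-band or myosin-binding proteins, 5 proteins of excitation and calcium handling and 2 genes of energy supply and fusion. The rule for the list uses no measured value, although the list was drawn up with earlier results of these data known. The question was which loci of mature muscle already carry open chromatin in muscle stem cells (MuSCs), and whether these loci hold TRF2 or change when TRF2 is lost.

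A sarcomere is the contractile unit of muscle, in which myosin thick filaments pull on actin thin filaments that are anchored at the Z-disc. Troponins and tropomyosins on the thin filament couple this movement to calcium, which leaves the sarcoplasmic reticulum when the membrane is excited. MuSCs are mononuclear cells that lie beside the muscle fibre and express few of these proteins. They turn the genes on when they differentiate and fuse, in part through MyoD-family factors that bind E-boxes and through MEF2 and serum response factor.

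The assay for transposase-accessible chromatin (ATAC-seq) was made on MuSCs sorted from uninjured mouse hind limb at 0 h, with 2 Control and 2 TRF2KO libraries. TRF2KO cells came from TRF2 fl/fl mice with Pax7-CreERT2, a tamoxifen-dependent recombinase driven from a gene of MuSCs, so that the shelterin protein TRF2 was deleted in Pax7-expressing cells of the adult. The genotype field of all 4 ATAC libraries reads Wildtype, and the groups were taken from the titles. CUT&Tag, which marks the sites where an antibody is bound, was made with anti-TRF2 (2 libraries) and IgG (1 library) on Wildtype MuSCs of the tibialis anterior, 3 days after an injection of 10 µl of the myotoxin notexin according to the labels. The methods of the study state a shorter interval after injury, and place the CUT&Tag cells in mice with a Cre at the Pax7 gene and a tdTomato reporter. Binding and accessibility were thus measured in cells of different state, and a site bound in injured muscle was not measured in uninjured muscle.

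The ATAC lists held between 84102 and 100521 MACS peaks, the longest in Control replicate 2, and the TRF2 lists held 12290 and 15479 against 656 for IgG. Read depth is unknown, because the lists hold regions and not reads. The peak near the start of Terf2, the deleted gene, had a fold enrichment of 54.3 and 48.4 in Control and of 21.5 and 18.6 in TRF2KO libraries, which is lower in both but not absent. Markers of MuSCs such as Pax7, Myf5 and Myod1 had a peak over a start in all 4 ATAC libraries in 15 of 15 cases. Of the markers of other cells, the same was true of 1 of 7 leukocyte, 2 of 7 endothelial, 4 of 7 fibro-adipogenic, 6 of 7 smooth muscle and pericyte, 3 of 6 tendon and Schwann cell and 0 of 10 liver genes. The part of such cells in the values that follow was not tested.

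The bases that precede some of the starts are given here to show what kinds of promoter were compared. The first set holds the 4 genes whose covered start had the highest peak rank in Control, with E-boxes (CANNTG) in capitals. They are read 5′ to 3′ on the strand of the gene from RefSeq GRCm38.p6 and end at the base before the start. A run stops where another annotated exon begins.

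Mylpf, chr7:127208640-127208889, the distal start that lies in open chromatin: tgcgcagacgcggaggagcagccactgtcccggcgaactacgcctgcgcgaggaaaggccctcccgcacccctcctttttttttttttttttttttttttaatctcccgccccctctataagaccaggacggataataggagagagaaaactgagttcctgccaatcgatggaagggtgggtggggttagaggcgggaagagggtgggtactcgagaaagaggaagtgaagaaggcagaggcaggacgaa
Tpm3, chr3:90079290-90079539, an internal start: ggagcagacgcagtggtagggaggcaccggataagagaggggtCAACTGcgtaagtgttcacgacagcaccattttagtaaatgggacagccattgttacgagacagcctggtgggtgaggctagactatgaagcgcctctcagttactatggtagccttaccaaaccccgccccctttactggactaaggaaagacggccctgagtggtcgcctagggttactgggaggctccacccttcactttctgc
Des, chr1:75360079-75360328, the start of the gene: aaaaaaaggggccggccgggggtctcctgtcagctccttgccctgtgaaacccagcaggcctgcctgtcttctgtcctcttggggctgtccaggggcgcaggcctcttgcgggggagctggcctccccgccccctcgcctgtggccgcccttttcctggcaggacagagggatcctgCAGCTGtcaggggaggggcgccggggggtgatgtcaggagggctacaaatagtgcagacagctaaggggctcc
Myom1, chr17:71002555-71002632, the distal start beside Myl12b: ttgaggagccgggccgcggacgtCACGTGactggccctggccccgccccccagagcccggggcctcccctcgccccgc

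The second set shows promoters that no ATAC peak covered, and was chosen after their values were seen, again with E-boxes in capitals.

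Mylpf, chr7:127211358-127211607, the RefSeq start: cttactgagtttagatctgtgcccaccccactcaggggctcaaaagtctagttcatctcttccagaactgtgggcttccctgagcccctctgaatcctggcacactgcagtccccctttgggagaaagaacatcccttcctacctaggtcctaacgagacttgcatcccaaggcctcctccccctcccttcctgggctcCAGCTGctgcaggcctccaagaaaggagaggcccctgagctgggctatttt
Myh8, chr11:67276874-67277123, the start of the gene: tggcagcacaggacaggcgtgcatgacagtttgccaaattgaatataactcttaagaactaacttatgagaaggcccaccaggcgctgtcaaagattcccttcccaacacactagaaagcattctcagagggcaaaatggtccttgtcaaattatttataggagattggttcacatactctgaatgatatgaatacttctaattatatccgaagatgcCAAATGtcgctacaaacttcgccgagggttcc

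In all 4 ATAC libraries, 32 of the 40 genes (80.0%) had a peak within 3 kb of an annotated start, against 66.7% of all protein-coding genes. A peak that covered a start base was found in all 4 for 14 of the 40 (35.0%), against 59.5% of all genes. With MACS peaks, the sarcomere genes were thus above the background within 3 kb of their starts and below it at the start itself. With a 1 kb window, 26 of the 40 had a peak in all 4 libraries, close to the 63.7% of all genes. The direction at the start itself depended on the caller. With stringent SEACR regions, 23 of the 40 (57.5%) were covered in all 4 libraries, above the 50% of all genes, whereas with GoPeaks regions 15 (37.5%) were, below the 58.4% of all genes. The MACS share of 35.0% compares with 41.7% (25 of 60) for a second list of sarcomere and muscle differentiation genes. For 6 genes (Myh2, Myh3, Myh7, Myl2, Myl3 and Tcap, 15.0%) a peak lay within 3 kb in every library and over no start in any, which held for 4.13% of all genes. No peak lay within 3 kb in any library for Myh8, Myl1 and Ckm. The remaining 5 (Myh4, Actc1, Tnnc2, Ldb3 and Myom2) had a near peak in some libraries. In a pool of cells, an opening in few cells and a weak opening in all cells cannot be told apart.

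**Figure D1:**
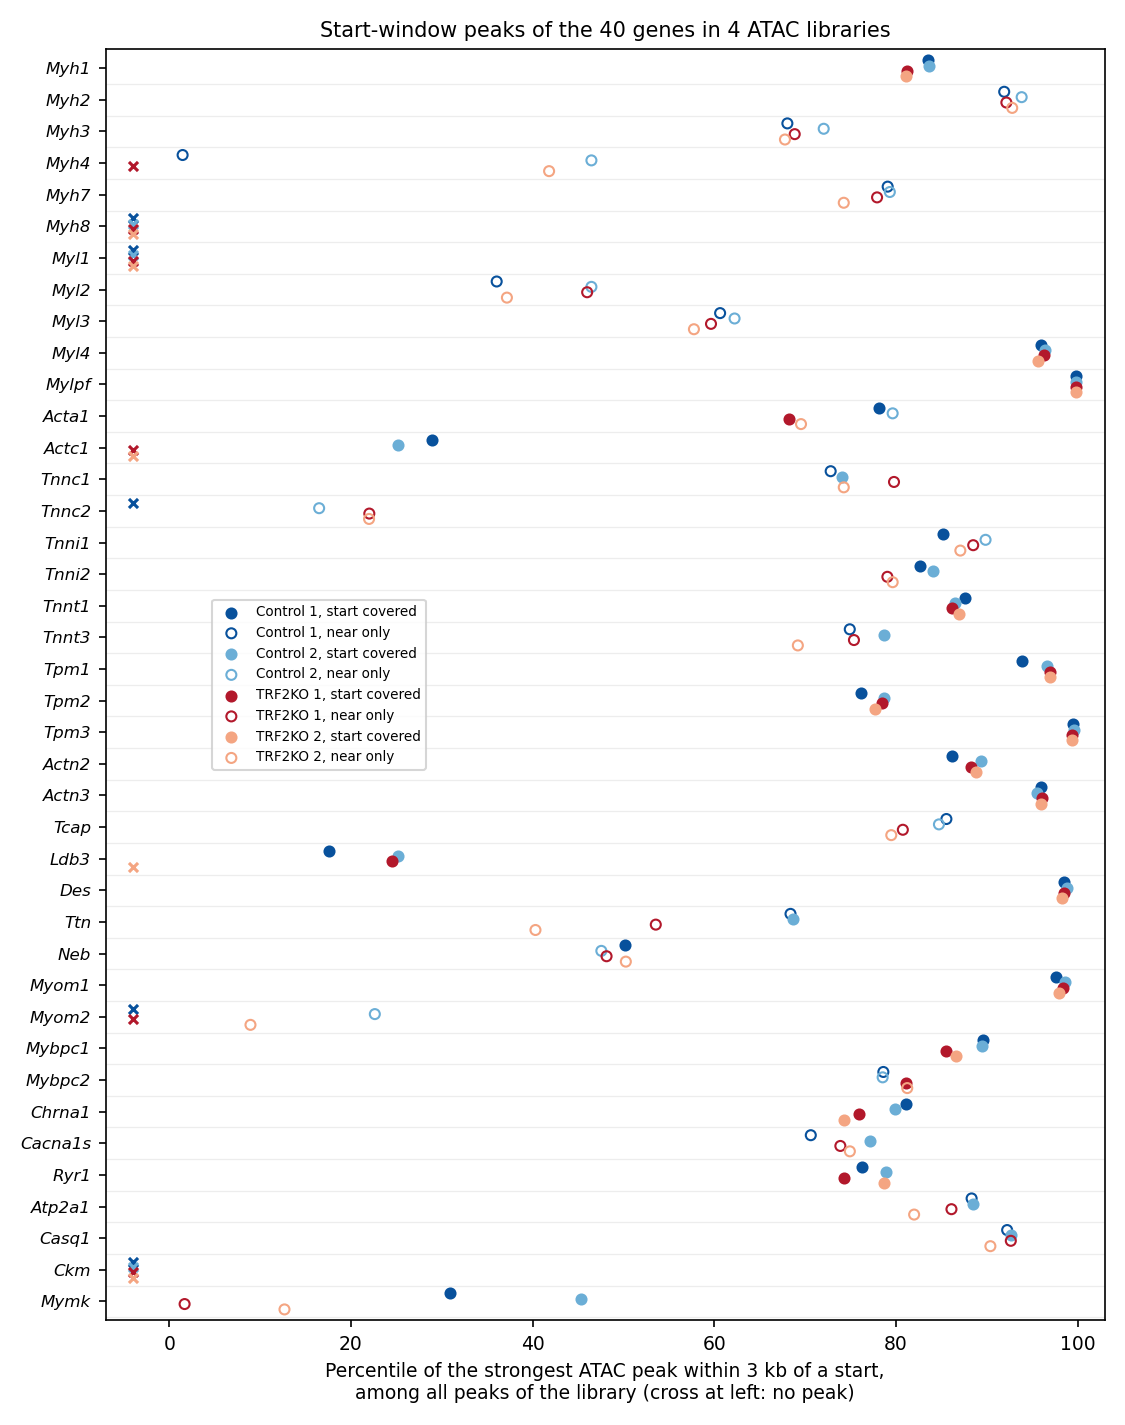
Percentile of the strongest ATAC peak within 3 kb of a start, among all peaks of its library, for the 40 genes in 2 Control (blue) and 2 TRF2KO (red) libraries. A filled point marks a library in which some peak covers a start of that gene, an open point a library with a near peak only, and a cross no peak. Mylpf, Tpm3, Des and Myom1 lie near the right edge in every library, whereas Myh8, Myl1 and Ckm have crosses only.

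**Figure D2:**
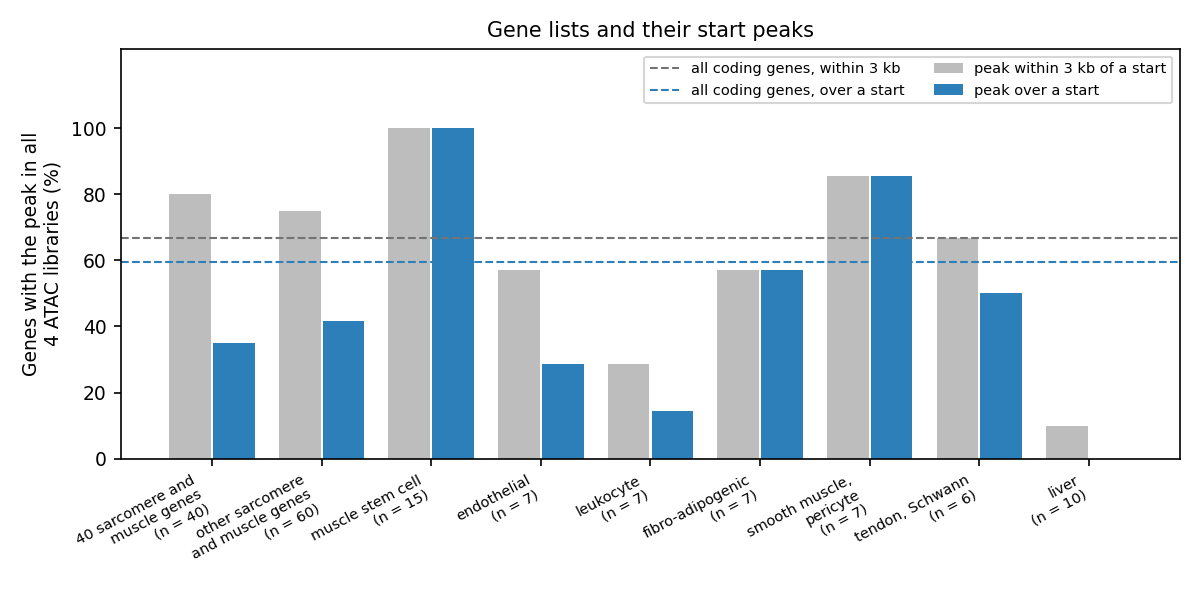
Percentage of each gene list with a MACS peak in all 4 ATAC libraries, within 3 kb of a start (grey) and over a start (blue). Dashed lines give all protein-coding genes, 66.7% and 59.5%. The sarcomere and muscle lists have grey bars above and blue bars below their lines, while muscle stem cell markers reach 100% on both.

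Among the myosin heavy chains, the motors of the thick filament, only Myh1 (fast, type IIx) had a covered start in all 4 libraries. Its peak had fold enrichments, that is, signal at the summit over local background as given by MACS, of 35.2 and 27.4 in Control and 30.4 and 28.4 in TRF2KO. At Myh2 (fast, type IIa) the strongest near peak ended 691 bp before the start and had folds of 62.8 and 59.7 in Control and 66.3 and 65.8 in TRF2KO. Embryonic Myh3 had its peak inside the gene, 1514 bp downstream of the start, with folds of 16.3, 14.6, 16.2 and 14.5 in the order Control 1, Control 2, TRF2KO 1 and TRF2KO 2. The slow cardiac and type I gene Myh7 had a peak 2196 bp upstream, with folds of 27.4, 21.1, 25.2 and 19.5 in the same order. Near Myh4 (type IIb) the peaks were weak, with folds of 2.76, 6.12 and 6.36 in 3 libraries and none in TRF2KO replicate 1. Perinatal Myh8 had none. By percentile within the library, Control and TRF2KO overlapped at Myh2 and Myh3.

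The heavy chains Myh3, Myh2, Myh1, Myh4 and Myh8 follow each other on chromosome 11, and most open regions of the cluster lay between genes. From 10 kb before Myh3 to 10 kb after Myh8, a stretch of 250 kb, 26 regions had a peak in some library and 17 had one in all 4. Of these 17, 12 lay outside the 5 genes, and 10 of them were in the 68.7 kb between the end of Myh3 and the start of Myh2. The highest folds of the gap were in the region already given just before Myh2, and the next highest were in the region nearest to Myh3, at chr11:67104519-67106392, which had folds of 47.2 and 34.9 in Control and 35.7 and 41.1 in TRF2KO. A region beyond Myh8, at chr11:67313468-67314911, had folds of 38.2 and 25.2 in Control and 27.0 and 19.5 in TRF2KO, and its nearest coding start was that of Myh13. Between Myh1 and Myh4 the region at chr11:67229759-67230504 had folds of 19.3, 14.4, 18.5 and 16.1.

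**Figure D3:**
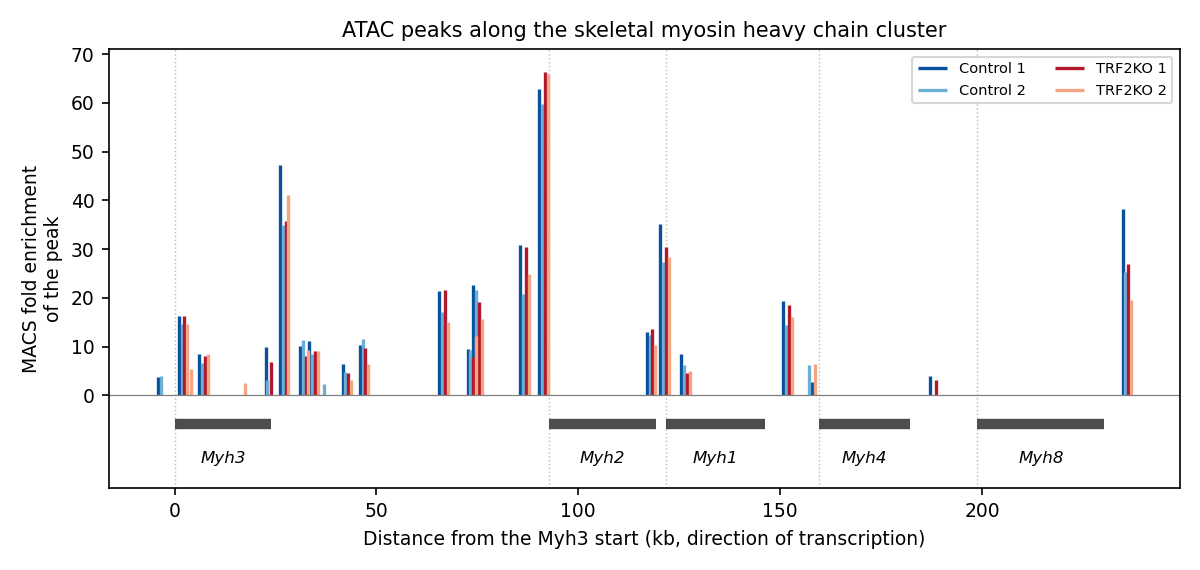
ATAC peaks along the myosin heavy chain cluster, with distance from the Myh3 start in kb on the x axis and MACS fold enrichment on the y axis, 1 line per library and region. Grey bars are the genes and dotted lines their starts. The tallest lines stand just before Myh2 and in the gap after Myh3, and Myh4 and Myh8 have no tall line at their starts.

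The light chains bind the neck of the myosin head. Mylpf, the fast regulatory light chain, had the highest ranked peak of all 40 genes, with folds of 195 and 165 in Control and 204 and 194 in TRF2KO. That peak covered a distal GENCODE start which shares its open region with Tbc1d10b, while the RefSeq start printed for Mylpf was covered in no library. Embryonic and atrial Myl4 had folds of 91.4, 79.5, 100 and 88.1 over a start in a region that also covers a start of Cdc27. A second covered start, in a region of its own, had folds of 36.6, 25.9, 25.6 and 22.7. At Myl3, the ventricular and slow light chain, the near peak lay over the start of Pth1r, and the stronger region was inside the gene at chr9:110757802-110759860 with folds of 39.1, 32.0, 47.1 and 38.4. Myl2, the slow regulatory light chain, had a weak internal peak with folds of 6.21, 6.12, 7.55 and 5.67. Over its RefSeq start at position 122093189 of chromosome 5, which is not among the GENCODE starts used, the peak had folds of 13.6 and 13.3 in Control and 6.18 and 5.45 in TRF2KO. Its percentiles were 63.1 and 70.0 in Control and 38.0 and 35.4 in TRF2KO, with both TRF2KO libraries below both Control libraries. Fast Myl1 had an intronic region at chr1:66940983-66941295, 3848 bp from the nearest start, with folds of 17.95, 17.1, 16.7 and 15.2 and no other region in all 4 libraries.

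The sarcomeric actins form the thin filament. Acta1, the adult skeletal actin, had its strongest near peak at the 3′ end of the gene, with folds of 26.0 and 21.4 in Control and 15.8 and 15.7 in TRF2KO. The region began 2673 bp downstream of the start and reached past the end of the gene. Its summit in Control replicate 1 was 3253 bp from the start, beyond the gene. The GENCODE start of Acta1 was covered in Control replicate 1 and TRF2KO replicate 1. Its RefSeq start, at position 123894775, was covered in both Control libraries, with folds of 5.98 and 4.50, and in TRF2KO replicate 1 with 2.74. Cardiac Actc1 had a weak peak over the start with folds of 5.29 and 3.78 in Control and no peak within 3 kb in either TRF2KO library. Both promoters hold a CArG box, the sequence bound by serum response factor, and that of Acta1 is shown with it in capitals, chosen after its values were seen, since Acta1 is among the genes whose peak ranked lower in TRF2KO.

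Acta1, chr8:123894776-123895025, minus strand: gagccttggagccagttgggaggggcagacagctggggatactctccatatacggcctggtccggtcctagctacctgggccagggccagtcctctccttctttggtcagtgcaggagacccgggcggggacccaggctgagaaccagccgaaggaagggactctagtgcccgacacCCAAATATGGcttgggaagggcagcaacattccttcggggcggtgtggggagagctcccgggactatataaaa

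Of the troponins, the calcium switch of the thin filament, only slow Tnnt1 had a covered start in all 4 libraries, with folds of 45.8 and 32.9 in Control and 41.9 and 41.3 in TRF2KO. Slow Tnni1 had a comparable peak 1233 bp before one of its internal starts, with folds of 38.9, 42.7, 49.4 and 41.8. The fast inhibitory subunit Tnni2 had a peak that ended 391 bp before its first start, which no peak covered, with folds of 33.4 and 28.1 in Control and 26.8 and 26.1 in TRF2KO, and a second, weak peak over an internal start with folds of 3.45 and 3.24 in Control alone. Fast Tnnt3 had folds of 22.1, 20.3, 22.0 and 15.4 in a peak 533 bp upstream. For Tnnc1, the slow and cardiac calcium sensor, the near peak covered the start of Nisch, with folds of 20.0, 16.0, 27.9 and 19.5. Fast Tnnc2 had folds of 3.24 in Control replicate 2 and of 4.35 and 4.09 in TRF2KO, and no peak in Control replicate 1.

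All 3 tropomyosins, which lie along the actin filament and are made from several promoters, had a covered start in all 4 libraries. Tpm3 had folds of 163 and 145 in Control and 167 and 158 in TRF2KO over its internal start, and its first start, at position 90072651 of chromosome 3, was covered in none. Tpm1 had folds of 74.1 and 81.9 in Control and 110 and 104 in TRF2KO over internal starts. Over its RefSeq start, at position 67049213 of chromosome 9, the folds were 32.4 and 26.1 in Control and 32.9 and 34.0 in TRF2KO. Tpm2 had folds of 23.5, 20.3, 25.8 and 23.4. At Tpm3 the open start was thus one of several, and these peaks say nothing of which protein isoform was made.

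Among the proteins of the Z-disc and the intermediate filaments, Des, which encodes desmin, had folds of 132 and 116 in Control and 137 and 125 in TRF2KO over its start. Actn2, the alpha-actinin of the Z-disc, had folds of 41.4, 40.9, 48.5 and 47.4 over its start. Actn3, its fast-fibre relative, had folds of 92.3, 71.4, 97.9 and 91.5 in a region that also covers the start of Zdhhc24. Tcap, which caps titin, had folds of 39.8 and 29.3 in Control and 29.5 and 25.9 in TRF2KO. That region began 157 bp downstream of the start, and its summit in Control replicate 1 was 1621 bp from the start, beyond the gene. A region that ended 24 bp before the start was weak, with folds of 3.68, 3.60, 4.35 and 2.95. Ldb3 had a weak start peak, with folds of 4.14, 3.78 and 4.57 and none in TRF2KO replicate 2.

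Of the giant and M-band proteins, Ttn, the titin spring, had its near peak 1809 bp upstream with folds of 16.6 and 12.6 in Control and 9.38 and 6.13 in TRF2KO. Both TRF2KO libraries were below both Control libraries. Neb, the thin filament ruler nebulin, had folds of 8.98, 6.30, 8.0 and 7.94 in a peak 75 bp from an internal start. Its first start, at position 52378474 of chromosome 2, was covered in Control replicate 1 alone, with a fold of 5.75. Myom1, an M-band protein, had folds of 113, 111, 136 and 119 over a distal start, in a region that also covers starts of Myl12a and Myl12b. Its RefSeq start was covered in none. Myom2 had weak peaks in Control replicate 2 and TRF2KO replicate 2, with folds of 3.60 and 3.18. The slow myosin-binding protein gene Mybpc1 had folds of 52.5, 41.2, 39.8 and 40.4 over its start, and the fast Mybpc2 had folds of 26.7 and 20.2 in Control and 30.2 and 28.6 in TRF2KO.

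In excitation and calcium handling, Chrna1, a subunit of the acetylcholine receptor, had folds of 30.6 and 21.8 in Control and 22.6 and 19.5 in TRF2KO over its start. The calcium release channel gene Ryr1 had folds of 23.7, 20.5, 20.8 and 24.7. The calcium pump gene Atp2a1 had folds of 48.1, 38.2, 41.6 and 30.0, and Casq1, the calcium buffer of the reticulum, had folds of 64.4, 53.8, 69.1 and 54.0 in a peak 1529 bp downstream of its start. At Cacna1s, the voltage sensor, the near peak covered the start of Ascl5. Ckm, the muscle creatine kinase, had a region with an exon of its own at chr7:19420951-19421724 with folds of 20.7, 22.1, 22.2 and 23.4, although its start was not covered. Mymk, the fusion protein myomaker, had weak near peaks in different regions, with folds of 5.52 and 5.94 in Control and 2.74 and 3.40 in TRF2KO.

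Where the RefSeq promoter table was used for the starts, 33 of the 40 genes matched with 38 starts. Of these 33, 11 (33.3%) had a start covered in all 4 libraries, against 60.1% of 16416 genes, and 17 of the 38 starts were covered in none. Mylpf, Myom1 and Tnnt1 were covered at GENCODE starts and at no RefSeq start, Actn3 was among the genes without a match, and Myl2 was covered at 1 of its RefSeq starts although at no GENCODE start. For Mylpf, Actn3 and Myom1 every start covered in all 4 libraries lay in a region that also covers the start of another gene.

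Promoters of these genes, taken as 250 bases before to 50 after the 38 RefSeq starts and searched on both strands, were poor in CpG. Their median ratio of observed to expected CpG was 0.25, against 0.57 over 21262 promoters of coding genes. CAGCTG, an E-box that also counts under CANNTG, was in 44.7% of them against 15.6% of all promoters, and CANNTG was in 84.2% against 69.0%. TATAAA was in 26.3% against 12.6%, and the GC box GGGCGG in 31.6% against 46.2%. CArG boxes were in 7 promoters (18.4%, of Acta1, Actc1, Ldb3, Myh4, Myl3 and Myom1, with Ldb3 counted at both starts) against 1.52%, and a MEF2 site was found in 1, that of Ttn, against 0.489%. Among the 11 starts covered in all 4 libraries, 45.5% held CAGCTG, and among the 17 covered in none 47.1% did. The median CpG ratio was 0.55 in the former and 0.20 in the latter, and over all promoters 0.78 and 0.19. A match is a run of letters and was not measured as a bound site.

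Beyond the starts, 24 of the 40 genes (60%) held at least 1 region inside the gene, more than 3 kb from its starts, with a peak in all 4 libraries, against 31.3% of all genes. The 40 genes were longer, with a median length of 22.7 kb against 17.4 kb, and the part of length in this difference was not tested. There were 43 such regions, and 23 of them overlapped no exon of the gene. A peak somewhere in the body in all 4 libraries, near the starts included, was found in 31 of the 40 genes (77.5%), against 69.2% of all genes. The strongest region beyond 3 kb was in Myom1 at chr17:71038260-71040858, 18.7 kb from the nearest start, with folds of 127 and 102 in Control and 108 and 101 in TRF2KO. Ryr1 held one at chr7:29042394-29045639, 79.4 kb into the gene, with folds of 76.9, 65.0, 72.0 and 73.5, more than at its own start in each library. An intronic region of Ldb3 at chr14:34548420-34549842 had folds of 55.5, 43.2, 56.0 and 59.2, in a gene whose start peak was below 5 in the 3 libraries that had one. Actn2 held an intronic region at chr13:12311399-12313137 with folds of 47.6, 42.3, 47.6 and 54.0. In 6 genes (Myl1, Myl3, Ldb3, Myom2, Ryr1 and Ckm) such an internal region had a higher fold than the near-start peak in every library, or stood where that library had no near-start peak. Which gene these regions act on was not measured.

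**Figure D4:**
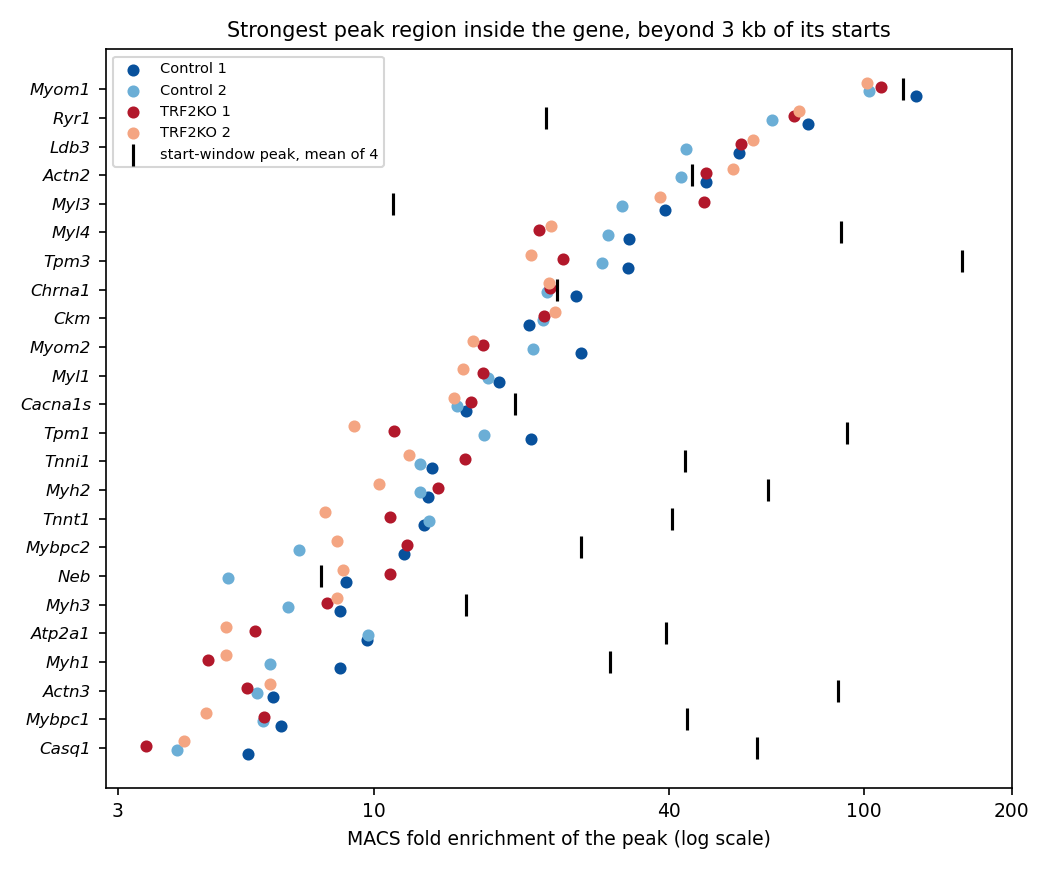
Fold enrichment (log scale) of the strongest ATAC region inside the gene and beyond 3 kb of its starts, for the 24 genes that have one in all 4 libraries. Points are libraries and the black tick is the mean of the near-start peak over 4 libraries, drawn where all 4 have one. For Ryr1 and Myl3 the points lie to the right of the tick, and for Tpm3 and Tpm1 to the left.

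TRF2KO was then compared with Control. The start was covered in 21 and 24 of the 40 genes in Control and in 17 and 14 in TRF2KO libraries, and these groups do not overlap. Over all genes the shares were 61.7% and 62.9% in Control and 62.1% and 61.7% in TRF2KO. The start was covered in more Control than TRF2KO libraries for 12 genes (30.0%, against 2.66% of all genes) and in more TRF2KO libraries for 1, Mybpc2 (2.5%, against 2.0%). Among the genes covered in 1 to 3 libraries, these 12 were 12 of 14 (85.7%), against 47.8% of 1223 genes. In 6 of the 12 (Atp2a1, Cacna1s, Casq1, Tnnc1, Tnnt3 and Ttn) the covering peak was in Control replicate 2 alone, the longest list. Of these, Cacna1s, Tnnc1, Tnnt3 and Ttn had weak covering peaks, with folds of 3.06, 3.24, 3.06 and 2.88. The lowest fold of that list was 2.34. At Neb and Tnni1 the covering peak was in Control replicate 1 alone, with folds of 5.75 and 4.14. TRF2KO replicate 2 had a peak in the same regions that missed the start, with folds of 3.40 and 3.63. At Atp2a1 and Casq1 the region had a peak in all 4 libraries, and only the edge in Control replicate 2 reached a start. The folds were 48.1, 38.2, 41.6 and 30.0 at Atp2a1 and 29.7, 25.4, 24.7 and 20.2 at Casq1. Mybpc2 was alike, with folds of 26.7, 20.2, 30.2 and 28.6, and only the peak of TRF2KO replicate 1 reached a start. When every list was cut to the length of the shortest, a choice made after seeing the data, the counts were 21, 20, 17 and 14. With SEACR regions they were 30 and 27 in Control and 28 and 28 in TRF2KO, and with GoPeaks 18, 18, 19 and 16, so that the groups were apart with MACS peaks and not with the other callers. At RefSeq starts the MACS counts were 14 and 19 in Control and 14 and 11 in TRF2KO, which overlap. In the second list of 60 genes, 30 and 33 starts were covered in Control and 26 and 29 in TRF2KO. The exact permutation test over 4 libraries cannot give a two-sided p below 0.333, and no p is given for these counts.

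A peak within 3 kb in both Control and neither TRF2KO library was found for Actc1 alone (2.5%, against 0.433% of all genes), and the reverse for none of the 40 (0.21% of all genes). Over an annotated start, Actc1, Mymk and Tnni2 had a peak in both Control and neither TRF2KO library (7.5%, against 0.356%), and no gene the reverse (0.196% of all genes). All 3 had folds under 6 at that peak, near the lower end of the lists. Neither SEACR nor GoPeaks regions within 3 kb gave any gene of this kind.

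The rank of the near-start peak among the peaks of its library was compared for the 32 genes with a peak in all 4. It was lower in both TRF2KO than in both Control libraries for 14 of the 32 (43.8%), against 30.1% of 14641 genes, and higher for 3 (9.38%), against 9.15%. For Ttn the percentiles were 68.4 and 68.6 in Control and 53.6 and 40.3 in TRF2KO, a mean difference of -21.6 points. Acta1, in the peak at the 3′ end of the gene, had percentiles of 78.1 and 79.6 in Control and 68.2 and 69.6 in TRF2KO, a difference of -10.0 points. Mymk had 30.9 and 45.3 in Control and 1.69 and 12.7 in TRF2KO, a difference of -31.0 points among weak peaks, where ranks are close together in fold. These Mymk values did not come from a single region. The Mymk region with a peak in all 4 libraries, chr2:27074955-27075936, lay at the edge of the window. It had folds of 6.44 and 5.94 in Control and 6.18 and 4.54 in TRF2KO. Among regions shared by all 4 libraries the Mymk difference was -1.97 points. The other 11 (Atp2a1, Chrna1, Des, Mybpc1, Myh1, Myh7, Myl3, Mylpf, Tcap, Tnni2 and Tpm3) differed by between -0.033 and -5.43 points. Tnnc1, Mybpc2 and Tpm1 ranked higher by 3.57, 2.62 and 1.72 points. The Tpm1 value is of the peak over internal starts. Over its RefSeq start the percentiles overlapped, with 82.2 and 82.9 in Control and 82.6 and 84.1 in TRF2KO. Each of these 17 genes gave the smallest possible exact permutation p, 0.333, so none of the differences could pass a threshold. Without Control replicate 1, 26 genes ranked lower, against 67.5% of all genes, and without Control replicate 2, 10 ranked higher, against 41.5%. The direction depended on the scale. On log2 fold centred on each library's median, 2 of the 32 (Acta1 and Ttn) were lower and 19 higher in TRF2KO, against 4.67% and 75.3% of all genes, whose median moved by 0.25. The 2 genes lower on centred fold are a share near that of all genes. Acta1 and Ttn were lower in both TRF2KO libraries on every scale tried within 3 kb, while Des, Mylpf and Tpm3 were lower by rank and higher by centred fold. The Acta1 and Ttn peaks lay more than 1 kb from a start, and neither gene was among those lower with a 1 kb window.

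Over the bodies of the 40 genes there were 126 and 150 peaks in Control and 106 and 123 in TRF2KO, a mean of 138 ± 17.0 (SD, n = 2) and 114.5 ± 12.0 (SD, n = 2). The mean fell by 17.0%, and over the bodies of all genes it fell by 11.3%. Covered length was 89.3 and 99.7 kb in Control and 80.0 and 76.9 kb in TRF2KO, which fell by 17.0% against 14.7% for all genes. The Control and TRF2KO libraries did not overlap in either measure, and the same held over the bodies of all genes. There the peaks numbered 60901 and 69290 in Control and 57858 and 57668 in TRF2KO. The covered length of all genes was 45.2 and 50.1 Mb in Control and 41.7 and 39.7 Mb in TRF2KO. For the 40 genes, the mean number differed by -0.5 with SEACR regions and by -7.0 with GoPeaks.

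TRF2 was found in both CUT&Tag libraries, in the gene or within 3 kb of a start, for 9 of the 40 genes (22.5%), against 28.5% of all genes. Within 3 kb of a start there were 7 (17.5%), against 24.8%. Among the 14 genes with a start covered in all 4 ATAC libraries, the same 7 made 50%, against 40.5% of all genes with such a start. IgG had no peak in any of the 40, and in 1.25% of all genes. With a peak in 1 library as the requirement, replicate 1 gave 13 genes (32.5%, against 39.1% of all genes) and replicate 2 gave 14 (35.0%, against 42.7%), and 16 had one in either (40%, against 50.4%). At -log10 q of at least 5 in both, 5 genes had a region (Mylpf, Tpm3, Actn2, Actn3 and Neb, 12.5%, against 15.9%). Des, Tpm2, Ldb3 and Myom1 did not pass this threshold.

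The 9 genes held 10 TRF2 regions with folds between 5.06 and 9.14, where the median peak of the 2 lists had folds of 5.53 and 5.63. At Mylpf the region chr7:127208824-127209086 covered the distal start with folds of 7.24 and 7.91 in the 2 TRF2 libraries. Des was bound over its start at chr1:75360166-75360540 with folds of 5.32 and 5.39. Tpm3 was bound over its internal start with folds of 5.69 and 7.57, Tpm2 635 bp from a start with 5.94 and 5.39, and Actn2 over its start with 7.29 and 6.37. The region of Actn3 covered the start of Zdhhc24, with folds of 5.70 and 7.53. Ldb3 was bound 22230 bp from its nearest start, with folds of 5.63 and 5.48, and Neb 15742 bp from its nearest start with 8.20 and 9.14. Of the 10 regions, 8 lay in ATAC peaks of all 4 libraries. The region in Neb met an ATAC peak in 2 libraries, and an internal region of Myom1 at chr17:71059331-71059561 met none. No myosin heavy chain, actin or troponin gene and no gene of the excitation and fusion groups had a TRF2 region in both libraries.

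A G-quadruplex motif, 4 runs of at least 3 G with spacers of 1 to 7 bases, was in 1 of the 10 regions, against 35.5% of the 7414 TRF2 regions found in both libraries. It lay at the distal Myom1 start, within the bases printed for that promoter and on the other strand, in a TRF2 region with folds of 7.11 and 5.54. It is shown with its G runs in capitals.

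Myom1, chr17:71002600-71002630, minus strand: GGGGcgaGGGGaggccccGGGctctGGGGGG

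The second list of 60 genes of the sarcomere and of muscle differentiation gave the same order of shares. A peak lay within 3 kb of a start in all 4 libraries for 45 (75.0%), over a start for 25 (41.7%), and TRF2 was in both libraries at 13 (21.7%). The covered 25 held structural genes (Cryab, Dmd, Flnc, Lmod2, Myl6b, Myom3, Pdlim3, Pdlim5, Synpo2l, Tmod1 and Tnni3), genes of the membrane, the synapse and calcium handling (Atp2a2, Cacnb1, Cacng1, Chrnb1, Chrnd, Jph1, Jph2, Jsrp1, Musk and Sypl2), the metabolic genes Mb, Pfkm and Pygm, and Klhl40. Eno3, the muscle enolase, was the one gene of this list with a start covered in both Control and neither TRF2KO library.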

How the data were processed

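Per the labels and the methods of the study, the authors trimmed reads with Cutadapt 4.4, aligned them to mm10 with Bowtie2 (2.4.4 or 2.5.4 in the submitters' processing notes), removed duplicates with Picard 3.1.1 and called peaks per library with MACS3 (3.0.0 and 3.0.2), SEACR 1.3 and GoPeaks. MACS settings, any Tn5 offset applied to ATAC reads, and whether IgG served as background in calling are not given in the sources used here. Deposited MACS values used were the fold enrichment, a ratio of summit signal to local background, and the -log10 q. SEACR and GoPeaks gave positions only. Deposited consensus lists were not used.

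The members and lists were chosen with earlier results of these data known. All 40 genes are named, by role. Printed promoters are those of the 4 genes with the highest mean Control percentile of a peak over a start, with other choices stated beside them.

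Peaks on chromosomes 1 to 19, X and Y were set against all starts of protein-coding GENCODE M21 transcripts (overlap of at least 1 bp), for all 21938 genes at once, with pandas 2.3.3, numpy 2.4.6 and pysam 0.24.0 in Python 3.11.15. A percentile is the rank of a peak's fold in its library, and the highest peak within 3 kb counts. Overlap code was tested on simulated data. Libraries are the unit (2 against 2, described as biological replicates), exact permutation tests are two-sided, and no set test was run. Alternatives were windows, start sets, thresholds, callers, scales, list length and leaving out each library. Depth is unknown.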

Additional observations from a re-analysis of the deposited data

How the results depend on the processing

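The count of 32 genes with a peak near a start in all 4 libraries was between 23 and 33 under the windows, callers, thresholds, start sets and left-out libraries tried, except for 14 (35.0%, below the 59.5% of all genes) where the peak had to cover the start. That last share turned above the background with SEACR (57.5% against 50%) and did not with GoPeaks (37.5% against 58.4%). Genes with a near peak in Control alone (1) numbered 2 with a 1 kb window or -log10 q of at least 5, 3 over the start, 0 with SEACR or GoPeaks, and 1 to 2 with 1 library left out. In TRF2KO alone (0) they numbered 1 at -log10 q of at least 5, and 0 to 1 with 1 library left out. Genes ranked lower in TRF2KO (14) numbered 10 among shared regions (against 13.6% of all genes) and 2 on centred log2 fold (against 4.67%). With 1 library left out they numbered 15 to 26, highest without Control replicate 1 (67.5% of all genes). Genes ranked higher (3) numbered 10 among shared regions (against 39.4% of all genes) and 19 on centred log2 fold (against 75.3%). With 1 library left out they numbered 4 to 10, highest without Control replicate 2 (41.5% of all genes). Single genes that turned on centred log2 fold were Myh1 (0.067), Myh7 (0.031), Myl3 (0.093), Mylpf (0.30), Tpm3 (0.22) and Des (0.23), and Myl3 also among shared regions (3.06 points). The cause was not tested.

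Genes with TRF2 (9) numbered 16 in either library, 5 at -log10 q of at least 5, and 13 to 14 with 1 library left out. Body peaks, TRF2KO minus Control (-23.5), were -0.5 with SEACR and -7.0 with GoPeaks, and covered length (-16.1 kb) was -90.0 kb with SEACR. With 1 library left out they ranged from -35.5 to -11.5 peaks and from -21.3 to -10.8 kb. Covered starts per library (-7.0) differed by -4.0 with RefSeq starts, -4.0 at -log10 q of at least 5 and -0.5 with SEACR or GoPeaks, and by -8.5 to -5.5 with 1 library left out.

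Control and TRF2KO share replicate numbers, and the deviations of same-numbered libraries were nearly uncorrelated (r = 0.017 over 61610 regions). With 2 libraries per group, this value cannot show whether same-numbered libraries were prepared together. With the replicate block, 15 genes ranked lower (against 38.1% of all genes) and 4 higher (against 13.3%). Body differences with the block were -23.5 peaks and -16.1 kb. Read depth is unknown, and its part in the weak peaks that some lists hold and others lack was not tested.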
